A study of Mus musculus with 2 samples.

Results

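The genes described here encode the dystrophin glycoprotein complex, taken as the 8 symbols Dmd, Utrn, Dag1, Sgca, Sgcb, Sgcd, Sgce and Sspn among the 32286 features counted. They were read in 2 droplet-based 3′ single-cell RNA libraries of satellite cells, the stem cells of skeletal muscle, sorted by flow cytometry from the biceps and recto femoris of Pax3GFP/+ mice at 5 days after injury. In these mice 1 Pax3 allele carries GFP, and both fractions come from that genotype in the titles, although the genotype field of the labels reads wild-type. The GFP+ fraction (PAX3+) and the GFP− fraction (PAX3−) gave 1 library each. The labels used here give no age, sex or number of animals, and 20000 cells were loaded per library. The series concerns heterogeneity of muscle stem cells with respect to PAX3 and SIX2.

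Members were summed as raw unique molecular identifiers (UMIs, 1 per captured transcript) over barcodes that passed 3 limits, namely 1000 UMIs or more, 500 genes or more and no more than 10% of UMIs from mitochondrial genes. This kept 604 GFP+ and 2683 GFP− cells, with medians of 18535 and 14663 UMIs per cell, and 2 barcode sequences occurred among the kept cells of both libraries. Levels are CPM, the UMIs of a gene scaled to the total of the same cells. With 1 library per group there was no test of any difference. The 95% intervals are exact and cover counting error only, so they say nothing about the spread between animals, and fewer molecules per cell cannot be told apart from fewer cells that express a gene.

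Cells were put into states in a fixed order, which begins with Acta1-high cells (at least 20 Acta1 UMIs per 10000, 22 GFP+ and 101 GFP− cells). Next came Myog-positive cells (111 GFP+ and 639 GFP−), then Mki67-positive cells (60 GFP+ and 381 GFP−), and then Pax7-only cells (328 GFP+ and 1216 GFP−). The remaining 83 GFP+ and 346 GFP− cells met none of the 4 criteria. Pax7 marks satellite cells, Mki67 dividing cells, Myog committed myocytes and Acta1 cells making contractile protein. Before the order was applied these groups overlapped. Of 133 GFP+ and 740 GFP− cells with a Myog UMI, 28 and 140 also held Mki67, and 57 and 338 also held Pax7. A list of 5 cycling genes stood at 456 CPM in GFP+ and 483 CPM in GFP− Myog-positive cells. In Pax7-only cells, which hold no Mki67 by definition, it stood at 24.8 CPM in GFP+ and 35.5 CPM in GFP−. In cells outside other gates, the satellite and myogenic marker list had all 9 genes detected, at 3416 CPM summed in GFP+ and 3042 CPM in GFP−. Droplets with at most 100 UMIs also had all 9, at 2846 CPM in GFP+ and 2904 CPM in GFP−. The macrophage list had 12 of 12 detected in cells outside other gates, at 19.7 CPM in GFP+ and 9.39 CPM in GFP−. Detection of a list therefore cannot show which type the cells are. Macrophage markers gated 76 GFP+ and 56 GFP− cells, and mural markers, those of pericytes and vascular smooth muscle, gated 0 GFP+ and 106 GFP− cells. These sit mostly among the cells that met none of the 4 criteria (62 of 83 GFP+ and 128 of 346 GFP− cells were in another gate), and partly in the Mki67-positive state (14 of 60 GFP+ and 37 of 381 GFP− cells). For the Mki67-positive state, levels of all members but Sgcd are given with and without the cells in another gate. For the cells that met none of the 4 criteria, values without those cells are given for Dmd, Dag1 and Sspn only.

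Dystrophin, the product of Dmd, links cortical actin to the membrane protein dystroglycan, whose extracellular subunit binds laminin in the basement membrane. The sarcoglycans and sarcospan stabilise that link in the muscle membrane, and utrophin is an autosomal relative of dystrophin that can take its place. In muscle fibres the complex protects the membrane during contraction, and its loss causes Duchenne and limb-girdle muscular dystrophies. In mouse satellite cells dystrophin has also been described as a partner of the polarity kinase Mark2 in asymmetric division.

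Dmd (ENSMUSG00000045103, chrX:82948870-85206141, plus strand, GRCm38) is the longest member locus, at 2257 kb with up to 79 exons. Its full-length muscle form and a short form that starts at an internal promoter end in the same 3′ exons, so 3′ UMI counts sum over both. RefSeq promoter windows (GRCm38.p6, 250 bases before the start) show the starts that these counts cannot separate. They stand beside those of Sgca and Sgcb, the members that were higher in Acta1-high cells. Capitals mark E-boxes (CANNTG, the same on both strands), the core word bound by MyoD-family factors.
Dmd first start, chrX:82948620-82948869, plus strand: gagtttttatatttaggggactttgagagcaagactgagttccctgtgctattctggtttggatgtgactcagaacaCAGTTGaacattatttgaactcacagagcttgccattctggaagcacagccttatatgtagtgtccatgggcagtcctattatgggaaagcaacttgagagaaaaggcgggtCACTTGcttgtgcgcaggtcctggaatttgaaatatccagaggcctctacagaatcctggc
Dmd internal start, chrX:85048045-85048294, plus strand: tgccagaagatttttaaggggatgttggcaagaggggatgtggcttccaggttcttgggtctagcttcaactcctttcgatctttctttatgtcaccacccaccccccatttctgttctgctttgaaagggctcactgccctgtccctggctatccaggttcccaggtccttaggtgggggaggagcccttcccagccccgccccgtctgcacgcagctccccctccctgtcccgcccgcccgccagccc
Sgca, chr11:94976328-94976577, minus strand: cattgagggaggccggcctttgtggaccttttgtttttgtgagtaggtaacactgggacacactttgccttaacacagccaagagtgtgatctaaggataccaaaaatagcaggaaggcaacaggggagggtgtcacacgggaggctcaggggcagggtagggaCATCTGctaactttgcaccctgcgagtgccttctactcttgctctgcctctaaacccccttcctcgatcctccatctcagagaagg
Sgcb, chr5:73647738-73647987, minus strand: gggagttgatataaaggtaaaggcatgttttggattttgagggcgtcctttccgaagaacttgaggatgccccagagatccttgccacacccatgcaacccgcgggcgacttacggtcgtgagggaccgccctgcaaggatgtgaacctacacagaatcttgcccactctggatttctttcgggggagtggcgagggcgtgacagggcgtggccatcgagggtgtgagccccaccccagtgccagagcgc

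The first Dmd start lay before exon 1 and its window held 2 E-boxes, 173 and 61 bases from the start. The internal start lay after 62 exons, before exon 63, in a window with 60% G and C and 0 E-boxes. Sgca had 1 E-box (CATCTG), 86 bases from its start, and Sgcb had 0 E-boxes and 1 TATAAA word. Of all RefSeq promoter windows of this length, 66.2% held an E-box, and a match is a description of the letters only. Windows were found for 7 of the 8 members, and Sgce had none in the table.

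Over all kept cells, none of the 7 members with enough UMIs for the comparison differed by 1.5-fold between the GFP+ and the GFP− library. A gene was called where it stood at least 1.5-fold higher or lower, among genes with at least 10 CPM in 1 of the sides and at least 20 UMIs over both. A gene under 10 CPM in 1 side could pass this filter only through the other, so its call could go in 1 direction only. Sgcd did not pass this filter, so 0 of 7 members were called, against 11.4% of all 8343 genes that passed. The median log2 ratio of the 7 members was −0.23 and that of all genes −0.11. Dmd had 355 UMIs in GFP+ cells and 947 UMIs in GFP− cells, or 29.6 CPM (26.6 to 32.9) in GFP+ and 21.4 CPM (20.1 to 22.8) in GFP− cells, a ratio of 1.38 (1.22 to 1.57). Among the members that passed, this was the highest ratio. Without the cells in another gate it reached 33.4 CPM in GFP+ and 19.9 CPM in GFP− cells, a ratio of 1.68.

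The other members lay nearer to or below equality between the libraries. Utrn stood at 58.0 CPM in GFP+ and 75.1 CPM in GFP− cells (ratio 0.772, 0.711 to 0.838). Dag1 stood at 685 CPM in GFP+ and 690 CPM in GFP− cells (ratio 0.992, 0.968 to 1.02), the member nearest to equality. Sgca had 17.2 CPM in GFP+ and 20.5 CPM in GFP− cells, Sgcb 74.2 CPM in GFP+ and 84.2 CPM in GFP− cells. Sgce had 29.2 CPM in GFP+ and 34.2 CPM in GFP− cells, and Sspn 46.3 CPM in GFP+ and 57.1 CPM in GFP− cells. These ratios are below 1, by less than 1.5-fold. Macrophage-gated cells were 12.6% of GFP+ and 2.09% of GFP− cells. Ratios were also taken without cells in another gate and cells with at least 3 Erfe plus Chrdl2 UMIs. They were then 0.906 (0.770 to 1.06) for Sgca, 0.955 (0.883 to 1.03) for Sgcb and 0.906 (0.795 to 1.03) for Sgce. Sspn had 0.911 (0.827 to 1.003), Dag1 1.04 (1.02 to 1.07) and Utrn 0.806 (0.735 to 0.883). Sgcd, with 9 UMIs in GFP+ and 18 UMIs in GFP− cells, was at the limit of detection, with a ratio of 1.85 (0.731 to 4.33).

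Free RNA was gauged in droplets with 1 to 100 UMIs and in macrophage-gated cells. Dmd stood at 18.6 CPM in GFP+ and 21.7 CPM in GFP− empty droplets, but macrophage-gated cells held 1 Dmd UMI in GFP+ (0.837 CPM, up to 4.66) and 0 in GFP− (up to 5.79). Dag1 stood at 15.9 CPM in GFP+ and 281 CPM in GFP− macrophage-gated cells, and 17 of the 76 GFP+ and 15 of the 56 GFP− macrophage-gated cells also met a criterion of the 4 states. Whether these UMIs came from free RNA, doublets or the cells themselves was not tested. Thinned to 5000 UMIs, 14.3% of 538 GFP+ cells (11.5 to 17.6) and 11.1% of 2493 GFP− cells held a Dmd UMI, and 0 of 69 GFP+ and 0 of 44 GFP− macrophage-gated cells did. The thinning left out 66 GFP+ and 190 GFP− cells, and the unthinned shares over all kept cells were 32.3% in GFP+ and 22.6% in GFP− cells. Dag1 was detected in 81.0% of thinned GFP+ and 89.7% of thinned GFP− cells, and in 96.6% and 96.0% of the Pax7-only cells of GFP+ and GFP−.

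Among the 4 states, Dmd was highest in Pax7-only cells of both libraries. Cells that met none of the 4 criteria had 11.6 CPM in GFP+ and 37.2 CPM in GFP−, and 60.3 CPM (30.1 to 108) in GFP+, from 11 UMIs, and 23.8 CPM (17.8 to 31.1) in GFP− without the cells in another gate. In GFP+ cells it stood at 45.4 CPM in Pax7-only, 15.5 in Mki67-positive, 16.2 in Myog-positive and 21.9 in Acta1-high cells. In GFP− cells the same order gave 29.7, 13.4, 12.6 and 15.0 CPM. The Mki67-positive, Myog-positive and Acta1-high states had overlapping intervals in each library. Their levels were not above those of the empty droplets of the same library beyond counting error. Dmd was called lower in Mki67-positive over Pax7-only cells (ratio 0.341, 0.218 to 0.511, in GFP+ and 0.450, 0.365 to 0.552, in GFP−). It was also called in Myog-positive (0.357 in GFP+ and 0.423 in GFP−) and in Acta1-high cells (0.483, 0.272 to 0.800, in GFP+ and 0.506, 0.351 to 0.710, in GFP−). The comparisons with each of these states share the same Pax7-only cells. Without the cells in another gate, the Mki67-positive level of Dmd was 18.2 CPM in GFP+ and 11.0 CPM in GFP− cells. That of Utrn was then 56.8 CPM in GFP+ and 69.6 CPM in GFP−, and that of Dag1 655 CPM in GFP+ and 516 CPM in GFP−. Sgca was then at 14.6 CPM in GFP+ and 10.1 CPM in GFP−, and Sgcb at 63.4 CPM in GFP+ and 72.1 CPM in GFP−. Sgce was at 43.0 CPM in GFP+ and 27.4 CPM in GFP−, and Sspn at 51.7 CPM in GFP+ and 47.2 CPM in GFP−. The macrophage list had 12 of 12 genes detected at 6530 CPM summed in GFP+ Mki67-positive cells, against 149 CPM in GFP+ Pax7-only cells. The mural list had 10 of 10 genes detected at 718 CPM in GFP− Mki67-positive cells, against 252 CPM in GFP− Pax7-only cells.

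**Figure D1:**
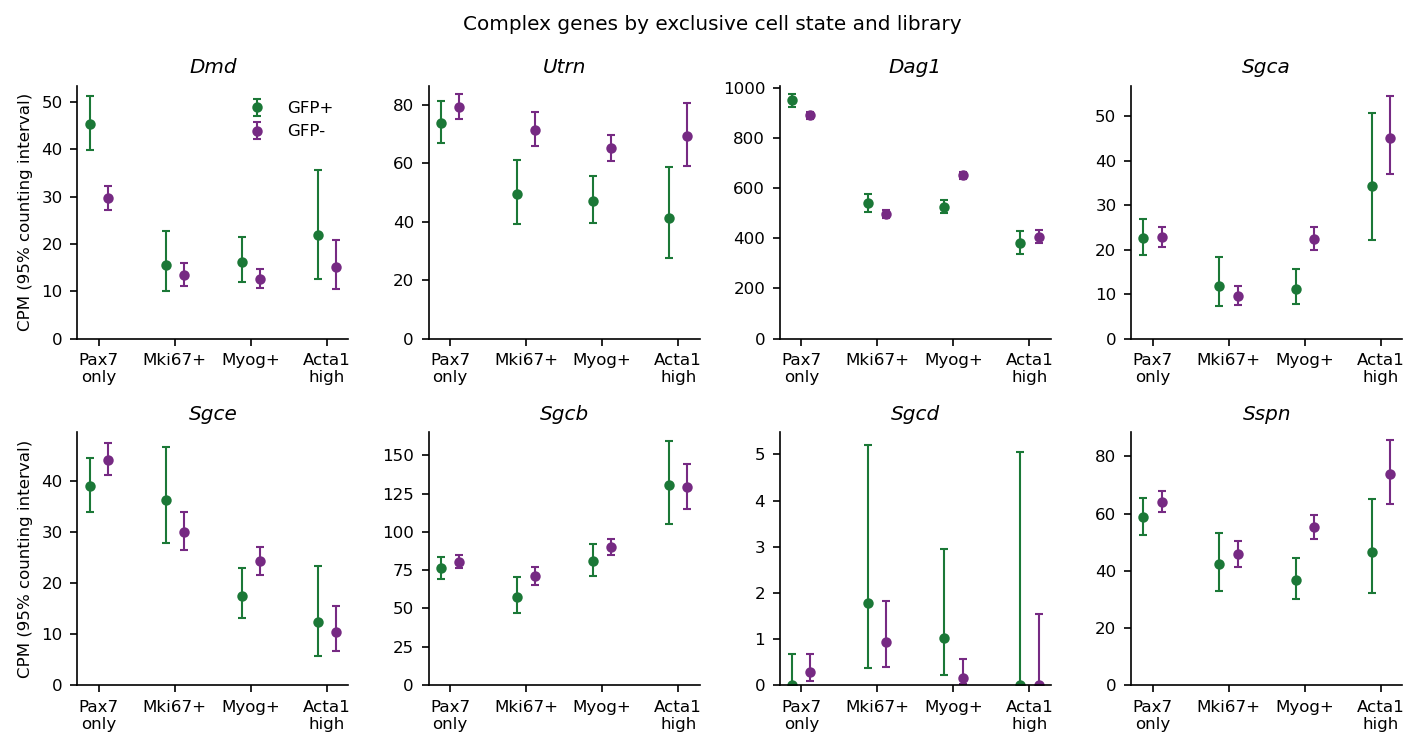
Level of each of the 8 genes (CPM, linear axis from 0) in 4 cell states of the GFP+ and GFP− libraries; points are sums over the cells of 1 library and bars are 95% Poisson counting intervals. Dmd and Dag1 are highest in Pax7-only cells, Sgce is lowest in Acta1-high cells, and Sgca and Sgcb are highest in Acta1-high cells of both libraries.

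The counts of called members have to be read against how many genes differ between states at all. In Mki67-positive over Pax7-only cells, 3 of 7 members were called in GFP+ against 29.1% of all genes, and 3 of 7 in GFP− against 22.1%. In Myog-positive over Pax7-only cells, 6 of 7 were called in GFP+ against 32.6% of all genes, and 2 of 7 in GFP− against 18%. In Acta1-high over Pax7-only cells, 6 of 7 were called in GFP+ against 53.2% of all genes, and 5 of 7 in GFP− against 49.2%. Median log2 ratios of the members were −0.85 in GFP+ and −0.20 in GFP− for the Acta1-high comparison, where all genes had −0.11 and −0.13. Cells of the Acta1-high state were deeper, with a median of 31910 UMIs in GFP+ and 21795 in GFP−, against 16128 in GFP+ and 13504 in GFP− Pax7-only cells.

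Utrn (ENSMUSG00000019820, chr10:12382188-12869365, minus strand) moved less than its paralogue. Its levels in GFP+ cells were 73.9, 49.4, 47.2 and 41.1 CPM from Pax7-only through Mki67-positive and Myog-positive to Acta1-high. In GFP− cells they were 79.4, 71.6, 65.2 and 69.3 CPM. The Acta1-high over Pax7-only ratio was 0.556 (0.371 to 0.806) in GFP+, which was called, and 0.872 (0.738 to 1.03) in GFP−, which was not. Whether the 2 ratios differ was not tested.

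Of the UMIs of the pair, Dmd therefore took a larger share in Pax7-only cells. It made up 38.0% of Dmd plus Utrn UMIs (34.3 to 41.9) in GFP+ and 27.2% (25.2 to 29.3) in GFP− Pax7-only cells. In Mki67-positive cells the share was 23.9% in GFP+ and 15.7% in GFP− (24.3% in GFP+ and 13.6% in GFP− without the cells in another gate), and in Myog-positive cells 25.5% in GFP+ and 16.1% in GFP−. In Acta1-high cells it was 34.8% (21.4 to 50.2) in GFP+, from 16 Dmd UMIs, and 17.8% (12.8 to 23.8) in GFP−. Empty droplets had 32.5% (22.4 to 43.9) in GFP+ and 24.5% (19.7 to 29.8) in GFP−, with intervals that overlap those of Pax7-only cells. These shares are of 3′ UMIs, not of protein.

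Among cells with a Pax7 UMI, Dmd was higher in those with more Pax7. In cells without Myog, Mki67 or high Acta1 and in no other gate, Dmd in GFP+ cells stood at 8.96, 20.0, 35.0, 89.3 and 200 CPM over bins of Pax7 above 0 to 1, 1 to 2, 2 to 4, 4 to 8 and at least 8 per 10000 UMIs. In GFP− cells the same bins gave 13.8, 22.1, 31.6, 52.6 and 107 CPM. Cells of this kind without any Pax7 UMI did not continue the order, at 60.3 CPM (30.1 to 108) in the 21 GFP+ cells, above the first 3 bins, and 23.8 CPM (17.8 to 31.1) in the 218 GFP− cells, above the first 2. In GFP+, cells with at least 4 Pax7 per 10000 stood 6.98-fold (4.81 to 10.4) above those with under 2, at 109 CPM against 15.6 CPM. In GFP− the ratio was 2.99 (2.38 to 3.75), at 56.3 CPM against 18.9 CPM. Here 4 of 7 members were called in GFP+ against 32.5% of all genes, and 2 of 7 in GFP− against 13%. In GFP+, Dmd, Dag1 and Sgca were higher and Sgcb lower, and in GFP− Dmd and Sgca were higher. Sgca stood at 27.6 CPM against 18.3 CPM in GFP+ (ratio 1.51, 0.945 to 2.41), with an interval that includes 1. In GFP− it stood at 33.4 CPM against 17.3 CPM (1.93, 1.47 to 2.52).

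Depth differed along these bins, with median UMIs of 23404 in the above 0 to 1 bin and 6115 in the highest bin of GFP+, and 14326 and 4810 in those of GFP−. The cells without a Pax7 UMI were shallow, with medians of 4447 in GFP+ and 9826 in GFP−. After thinning all cells to 5000 UMIs, Dmd stood at 20.3, 55.6, 59.4, 115 and 77.8 CPM in GFP+ cells with 0, 1, 2, 3 to 4 and at least 5 Pax7 UMIs, where the last bin holds 18 cells. In GFP− cells the thinned bins gave 25.7, 28.6, 34.9, 51.2 and 71.4 CPM, higher at each step. Without the cells holding Erfe and Chrdl2, described next, the last bins stood at 50 CPM in GFP+, from 3 UMIs in 12 cells, and 38.5 CPM in GFP−, from 5 UMIs in 26 cells.

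**Figure D2:**
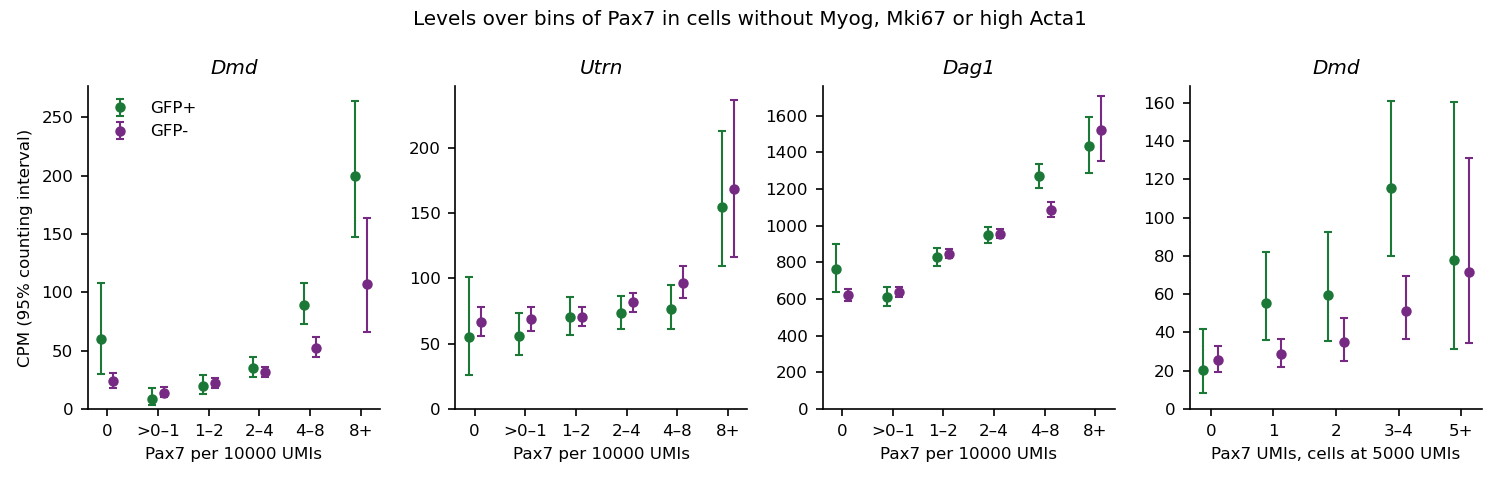
Levels of Dmd, Utrn and Dag1 (CPM) over bins of Pax7 per 10000 UMIs in cells without Myog, Mki67 or high Acta1, and of Dmd over Pax7 UMIs in cells thinned to 5000 UMIs; points are GFP+ and GFP− sums and bars 95% Poisson counting intervals. Dmd reaches 200 CPM in GFP+ and 107 CPM in GFP− cells of the highest Pax7 bin, and the GFP+ cells without Pax7 stand at 60.3 CPM.

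A subset of Pax7-only cells held at least 3 UMIs summed over Erfe, which encodes the hormone erythroferrone, and Chrdl2, a secreted BMP antagonist. They numbered 73 GFP+ and 33 GFP− cells. Dmd in them stood at 117 CPM (93.2 to 144) against 34.7 CPM in the other Pax7-only cells of GFP+, a ratio of 3.36 (2.56 to 4.39). In GFP− it stood at 112 CPM (78.8 to 154) against 28.1 CPM, a ratio of 3.99 (2.77 to 5.57). Utrn was 1.70-fold (1.32 to 2.17) higher in the GFP+ subset, at 115 CPM against 67.7 CPM, and 1.42-fold (0.996 to 1.97) in GFP−, at 112 CPM against 78.8 CPM. Sspn was lower in the GFP+ subset (0.622, 0.407 to 0.918), and Sgca was called lower in the GFP− subset (0.526, 0.143 to 1.36) from only 4 UMIs. In all, 3 of 7 members were called in GFP+ against 34.6% of all genes, and 2 of 7 in GFP− against 31.5%. The subset was shallow, with medians of 7389 UMIs in GFP+ and 8646 UMIs in GFP− cells. In cells thinned to 5000 UMIs, a Dmd UMI was found in 39.7% (27.0 to 53.4) of the subset and 15.0% (10.6 to 20.2) of the other Pax7-only cells in GFP+. In GFP− it was found in 30.4% (13.2 to 52.9) of the 23 subset cells left and 12.3% (10.4 to 14.3) of the others. The thinned Utrn shares were 44.8% (31.7 to 58.5) against 29.9% (24.1 to 36.2) in GFP+ and 26.1% (10.2 to 48.4) against 31.7% (29.0 to 34.5) in GFP−.

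This subset was 73 of 328 Pax7-only cells in GFP+ and 33 of 1216 in GFP−, and the difference in Dmd between the libraries was smaller without it. Within Pax7-only cells, Dmd stood at 45.4 CPM (40.0 to 51.4) in GFP+ and 29.7 CPM (27.2 to 32.3) in GFP− cells, a ratio of 1.53 (1.31 to 1.78). It was the only member called of 7, against 7.53% of all genes. With the Erfe and Chrdl2 cells left out it stood at 34.7 CPM in GFP+ and 28.1 CPM in GFP− cells, a ratio of 1.24 (1.03 to 1.48), and 0 of 7 members were called against 6.56% of all genes. The other 6 members had ratios between 0.881 and 1.07 in Pax7-only cells.

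In the Myog-positive, Mki67-positive and Acta1-high states, few members differed between the libraries. In Myog-positive cells, 1 of 7 was called against 12.6% of all genes. It was Sgca, at 11.1 CPM (7.66 to 15.6) in GFP+ and 22.4 CPM (19.9 to 25.2) in GFP− cells. In Mki67-positive cells 0 of 7 were called against 21.6% of all genes. In Acta1-high cells 2 of 7 were called against 29.2%, namely Utrn (41.1 CPM in GFP+ and 69.3 CPM in GFP−) and Sspn (46.6 CPM in GFP+ and 73.9 CPM in GFP−), from 30 and 34 UMIs in the 22 GFP+ cells. Among cells that met none of the 4 criteria, 7 of 7 were lower in GFP+, against 60.1% of all genes called. Without the cells in another gate, 21 GFP+ and 218 GFP− cells remained there, and 1 member was called. The called ratios that then changed direction were those of Dmd (2.54), Dag1 (1.22) and Sspn (1.16), and the other members are not given.

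Dag1 (ENSMUSG00000039952, chr9:108204634-108263958, minus strand) encodes both subunits of dystroglycan. It was highest in the Pax7-only state of both libraries. In GFP+ cells it stood at 951 CPM in Pax7-only, 541 in Mki67-positive, 527 in Myog-positive and 381 in Acta1-high cells. In GFP− cells it stood at 892, 498, 653 and 406 CPM in the same order, so that Myog-positive cells lay above Mki67-positive cells there. The Acta1-high over Pax7-only ratio was 0.401 (0.354 to 0.452) in GFP+ and 0.455 (0.426 to 0.486) in GFP−. Among cells with a Pax7 UMI, Dag1 was higher with more Pax7, with 613 CPM in the above 0 to 1 bin and 1434 CPM in the highest bin of GFP+, and 637 CPM and 1522 CPM in those of GFP−. Cells without a Pax7 UMI had 761 CPM (640 to 899) in GFP+ and 623 CPM (590 to 656) in GFP−.

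Genes for the ligands of dystroglycan, which are laminin chains, agrin and perlecan, were lower in Acta1-high cells as well. Of 11 listed, 7 passed the filter, and 7 of 7 were called lower over Pax7-only cells in GFP+ and 7 of 7 in GFP−, where 31.7% and 29.7% of all genes were. Lama2, the muscle laminin α2 chain, stood at 13.7 CPM against 127 CPM in GFP+ and 20.0 CPM against 131 CPM in GFP−. Lamb1 had ratios of 0.142 in GFP+ and 0.191 in GFP−, and Agrn ratios of 0.338 in GFP+ and 0.264 in GFP−. The list's median log2 ratio was −1.57 in GFP+ and −1.76 in GFP−, against −0.11 and −0.13 over all genes.

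Of 17 listed genes for enzymes that build the laminin-binding sugar on dystroglycan, 12 passed the filter, with 1 higher and 5 lower in GFP+ and 0 higher and 4 lower in GFP− Acta1-high cells, where 53.2% of all genes in GFP+ and 49.2% in GFP− were called. B4gat1, which primes the sugar chain, stood at 19.2 CPM against 45.8 CPM in GFP+ (ratio 0.419) and 30.9 CPM against 45.8 CPM in GFP− (0.674, not called). Dpm3, a subunit of the enzyme that makes the mannose donor, had ratios of 0.612 (0.482 to 0.768) in GFP+ and 0.554 (0.466 to 0.654) in GFP−, both called. Itga7 and Itgb1, the muscle laminin-binding integrin, had ratios of 0.661 and 0.664 in GFP+, both called, and 0.675 and 0.824 in GFP−, neither called. The integrin α6 gene Itga6, another laminin receptor subunit, was called higher in GFP−, at 11.3 CPM against 1.78 CPM, and did not pass the filter in GFP+. In GFP− it passed through Acta1-high cells alone, so it could not be called lower.

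The sarcoglycans divided into members that were higher and a member that was lower in Acta1-high cells. Sgca (α-sarcoglycan, ENSMUSG00000001508, chr11:94962791-94976327, minus strand) stood at 22.6, 11.9, 11.1 and 34.3 CPM from Pax7-only through Mki67-positive and Myog-positive to Acta1-high GFP+ cells. In GFP− it stood at 22.8, 9.53, 22.4 and 45.1 CPM. The Acta1-high over Pax7-only ratio was 1.52 (0.945 to 2.34) in GFP+, from 25 UMIs, with an interval that includes 1, and 1.98 (1.58 to 2.45) in GFP−. Sgca was thus highest in Acta1-high cells of both libraries. It was lowest in Mki67-positive cells of GFP−, whereas in GFP+ the Mki67-positive and Myog-positive levels did not differ beyond counting error.

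Sgcb (β-sarcoglycan, ENSMUSG00000029156, chr5:73632749-73647790, minus strand) followed a similar course at a smaller range. It stood at 76.1, 57.7, 81.0 and 130 CPM in GFP+ and at 80.5, 70.9, 90.2 and 129 CPM in GFP− cells in the same order of states. The Acta1-high over Pax7-only ratio was 1.71 (1.36 to 2.14) in GFP+ and 1.60 (1.41 to 1.81) in GFP−. Over 10 sums, 5 states in each of 2 libraries, the log2 levels of Sgca and Sgcb had a Pearson correlation of 0.93. This is a description, since states within a library share sequencing depth and free RNA. The sums also include the cells that met none of the 4 criteria, many of them in another gate. Sgcb was lower in cells with at least 4 Pax7 per 10000 than in those with under 2, at 53.0 CPM against 83.8 CPM in GFP+ (ratio 0.633, 0.476 to 0.833, called). In GFP− that ratio was 0.822 (0.697 to 0.964), not called. Sgca was called higher in that comparison in both libraries, in GFP+ with an interval that includes 1.

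Sgce (ε-sarcoglycan, ENSMUSG00000004631, chr6:4674350-4747207, minus strand), the paralogue of Sgca, went the other way. In mice it is an imprinted gene expressed from the paternal allele, and many tissues outside striated muscle express it. It stood at 38.9, 36.3, 17.5 and 12.3 CPM in GFP+ and at 44.2, 30.0, 24.2 and 10.4 CPM in GFP− cells from Pax7-only through Mki67-positive and Myog-positive to Acta1-high. The Acta1-high over Pax7-only ratio was 0.317 (0.143 to 0.613) in GFP+, from 9 UMIs, and 0.236 (0.152 to 0.351) in GFP−. Over bins of Myog itself, Sgce stood at 39.5 CPM in cells with 0 and 7.53 CPM in cells with at least 20 per 10000 in GFP+, and at 38.6 CPM and 13.3 CPM in GFP−.

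The share of Sgca in the Sgca plus Sgce UMIs compares the paralogues in a measure that does not depend on the total UMIs of the cells. In Pax7-only cells it was 36.7% (31.6 to 42.1) in GFP+ and 34.0% (31.3 to 36.8) in GFP−. In Mki67-positive cells it was 24.7% (15.8 to 35.5) in GFP+ and 24.1% (19.7 to 29.0) in GFP−, or 25.3% in GFP+ and 27.0% in GFP− without the cells in another gate. In Myog-positive cells it was 38.8% (28.4 to 50) in GFP+ and 48.0% (43.9 to 52.2) in GFP−. In Acta1-high cells it was 73.5% (55.6 to 87.1) in GFP+ and 81.2% (73.5 to 87.5) in GFP−, with intervals above those of the other 3 states in both libraries. Empty droplets had 32.2% in GFP+ and 47.4% in GFP−.

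**Figure D3:**
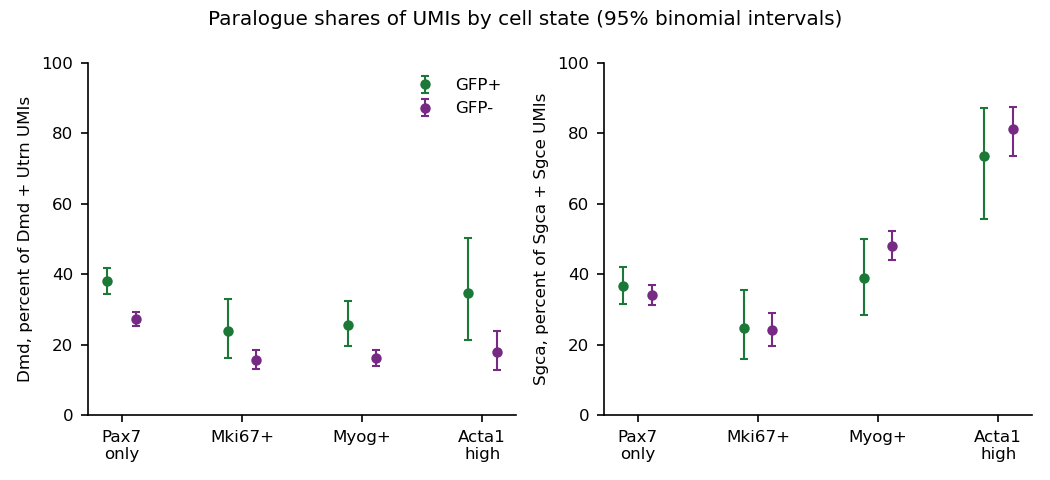
Share of Dmd in Dmd plus Utrn UMIs and of Sgca in Sgca plus Sgce UMIs (percent, axes from 0 to 100) in 4 cell states of the GFP+ and GFP− libraries, with exact 95% binomial intervals. Sgca makes up 73.5% of its pair in GFP+ and 81.2% in GFP− Acta1-high cells, and under 50% in the other 3 states of both libraries.

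Peg10, the paternally expressed neighbour of Sgce, was lower in Acta1-high cells too. It had 2 UMIs in GFP+ (2.74 CPM, against 29.3 CPM in Pax7-only cells) and 4 UMIs in GFP− (1.67 CPM, against 30.2 CPM). Peg10 passed the filter through Pax7-only cells alone, so it could not be called higher. Of the 12 listed imprinted genes that passed the filter, Sgce among them, 2 were higher and 8 lower in GFP+, and 2 higher and 7 lower in GFP−, against 21.5% of all genes higher and 31.7% lower in GFP+ and 19.5% higher and 29.7% lower in GFP−. Cdkn1c, which encodes the cell-cycle inhibitor p57, was 5.47-fold higher in GFP+ and 4.25-fold higher in GFP−, so the list did not move in 1 direction. With Plagl1, the imprinted zinc-finger regulator, Sgce in GFP− cells stood at 24.2, 34.7, 42.4 and 40.2 CPM in cells with 0, 1 to 2, 3 to 9 and at least 10 Plagl1 UMIs. In GFP+ cells these bins gave 25.8, 31.2, 43.0 and 32.6 CPM, with median depths of 11030 UMIs in the first and 24067 UMIs in the last. In cells thinned to 5000 UMIs, the first 3 bins gave 38.7, 35.5 and 52.6 CPM in GFP+, with overlapping intervals, and 29.9, 48.1 and 42.2 CPM in GFP−, where the first lay below the second beyond counting error.

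Sgcd (δ-sarcoglycan, ENSMUSG00000020354, chr11:46896253-47988969, minus strand) was nearly absent from the myogenic counts. Of its 9 GFP+ UMIs, 8 were in the 6 cells gated as fibroadipogenic, and of its 18 GFP− UMIs, 16 were in cells outside every other gate. It had 0 UMIs in GFP+ Acta1-high cells (up to 5.06 CPM) and 0 in GFP− Acta1-high cells (up to 1.54 CPM).

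Sspn (sarcospan, ENSMUSG00000030255, chr6:145931641-145965223, plus strand), a tetraspan protein bound to the sarcoglycans, stood at 58.7, 42.2, 36.8 and 46.6 CPM in GFP+ and at 64.1, 45.8, 55.1 and 73.9 CPM in GFP− cells from Pax7-only through Mki67-positive and Myog-positive to Acta1-high. It was called lower in Myog-positive over Pax7-only cells of GFP+ (0.627, 0.500 to 0.781) and not of GFP− (0.860, 0.781 to 0.946). The Acta1-high over Pax7-only ratio was 0.794 (0.541 to 1.13) in GFP+ and 1.15 (0.978 to 1.35) in GFP−, and both intervals include 1.

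The cytoplasmic and caveolar partners of the complex also split by isoform. Of 12 further complex genes, 7 passed the filter in each library, with 4 higher and 1 lower in GFP+ and 3 higher and 2 lower in GFP− Acta1-high cells. Over all genes, 21.5% were higher and 31.7% lower in GFP+, and 19.5% higher and 29.7% lower in GFP−. Cav3, the muscle caveolin, stood at 74.0 CPM against 7.0 CPM in GFP+ and 231 CPM against 9.76 CPM in GFP−. It was under 10 CPM in Pax7-only cells, so it passed the filter through Acta1-high cells alone and could not be called lower. Dtna (α-dystrobrevin) was 4.18-fold (2.56 to 6.69) higher in GFP+ and 6.51-fold (5.34 to 7.93) higher in GFP−. Of the syntrophins, adaptors that bind dystrophin, Sntb1 was 5.54-fold higher in GFP+ and 4.85-fold higher in GFP−. Sntb2 stood lower, at 6.85 CPM against 63.5 CPM in GFP+ and 7.93 CPM against 61.4 CPM in GFP−. Sntb2 passed the filter through Pax7-only cells alone and could not be called higher. Cav1, another caveolin gene, listed with the membrane repair genes, had ratios of 0.132 in GFP+ and 0.122 in GFP−. Of the membrane repair list, against the same shares of all genes, 5 of 5 tested were lower in GFP+, and 5 of 6 in GFP−, where Dysf (dysferlin) was higher at 2.91-fold.

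**Figure D4:**
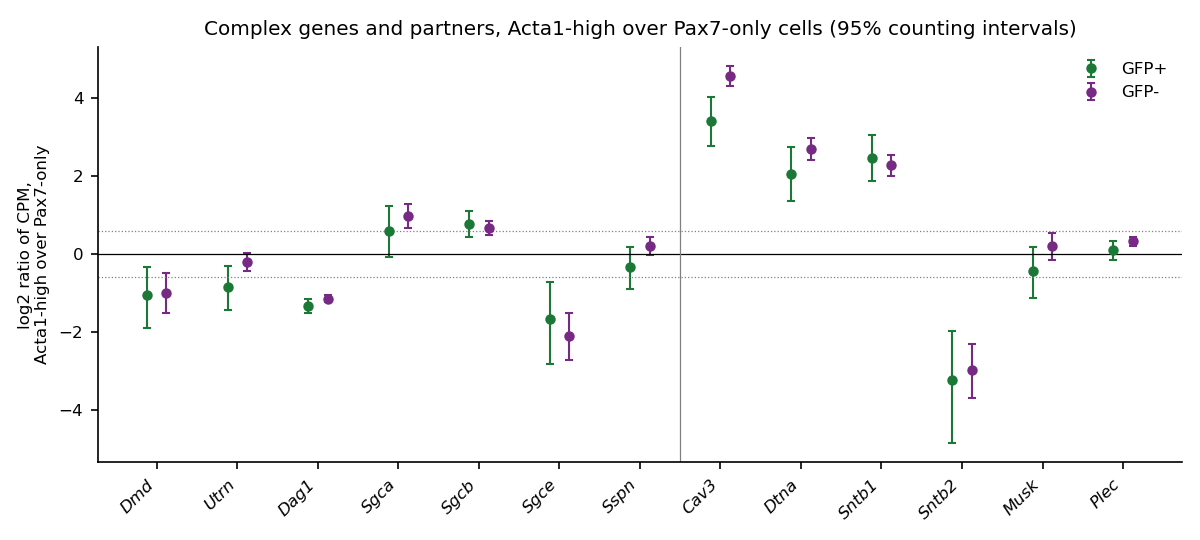
log2 ratio of CPM in Acta1-high over Pax7-only cells for the 7 members that passed the filter (left of the grey line) and 6 partners that passed in both libraries (right), in GFP+ and GFP−; bars are 95% counting intervals and dotted lines mark 1.5-fold. Sgca, Sgcb, Cav3, Dtna and Sntb1 lie above 0 and Dmd, Dag1, Sgce and Sntb2 below 0 in both libraries.

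Between the libraries over all kept cells, the partners gave 0 higher and 3 lower of 6 tested, against 7.84% of all genes higher and 3.54% lower. These were Cav3 (11.9 CPM in GFP+ and 23.2 CPM in GFP−), Dtna (11.6 CPM in GFP+ and 19.6 CPM in GFP−) and Sntb1 (15.4 CPM in GFP+ and 23.5 CPM in GFP−). Acta1-high cells made up 3.64% of GFP+ and 3.76% of GFP− cells, and Myog-positive cells 18.4% (15.4 to 21.7) of GFP+ and 23.8% (22.2 to 25.5) of GFP− cells. The part of these shares was not tested. Within Acta1-high cells the ratio of GFP+ over GFP− was 0.321 (0.238 to 0.425) for Cav3, 0.486 (0.317 to 0.720) for Dtna and 0.747 (0.528 to 1.04) for Sntb1. Of the polarity partners of dystrophin, 4 were tested. Between the libraries over all kept cells, 0 were higher and 1, Pard6g, was lower in GFP+. In Acta1-high over Pax7-only cells, 1 was higher and 1 lower in GFP+, and 2 were higher and 1 lower in GFP−. In that comparison 53.2% of all genes in GFP+ and 49.2% in GFP− were called. Pard3 was higher in Acta1-high cells (1.58-fold in GFP+ and 2.21-fold in GFP−) and Prkci, an atypical protein kinase C, lower (0.0943 in GFP+, from 1 UMI, and 0.458 in GFP−). Pard6g was called higher in Acta1-high over Pax7-only cells of GFP− (1.74, 1.36 to 2.21) and not of GFP+ (1.24, 0.589 to 2.35).

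Mural-gated cells of the GFP− library carried a different set of members. Against GFP− Pax7-only cells, 6 of 7 members were called, where 49.4% of all genes were. Dmd stood at 82.5 CPM (66.3 to 102) against 29.7 CPM, Utrn at 178 CPM (154 to 205) against 79.4 CPM and Sgce at 78.8 CPM (62.9 to 97.4) against 44.2 CPM. Dag1 stood at 197 CPM against 892 CPM, and Sspn at 29.7 CPM against 64.1 CPM. Sgca had 4 UMIs there (3.71 CPM, 1.01 to 9.49, against 22.8 CPM), and 4.49% (1.24 to 11.1) of its pair with Sgce. The GFP+ library had 0 of 604 cells in this gate, which allows a share of up to 0.609%. The 13 glial-gated GFP− cells had 16 Dmd UMIs (183 CPM, 105 to 298), 36 Utrn UMIs (412 CPM, 289 to 571) and 0 Sgca UMIs.

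**Figure D5:**
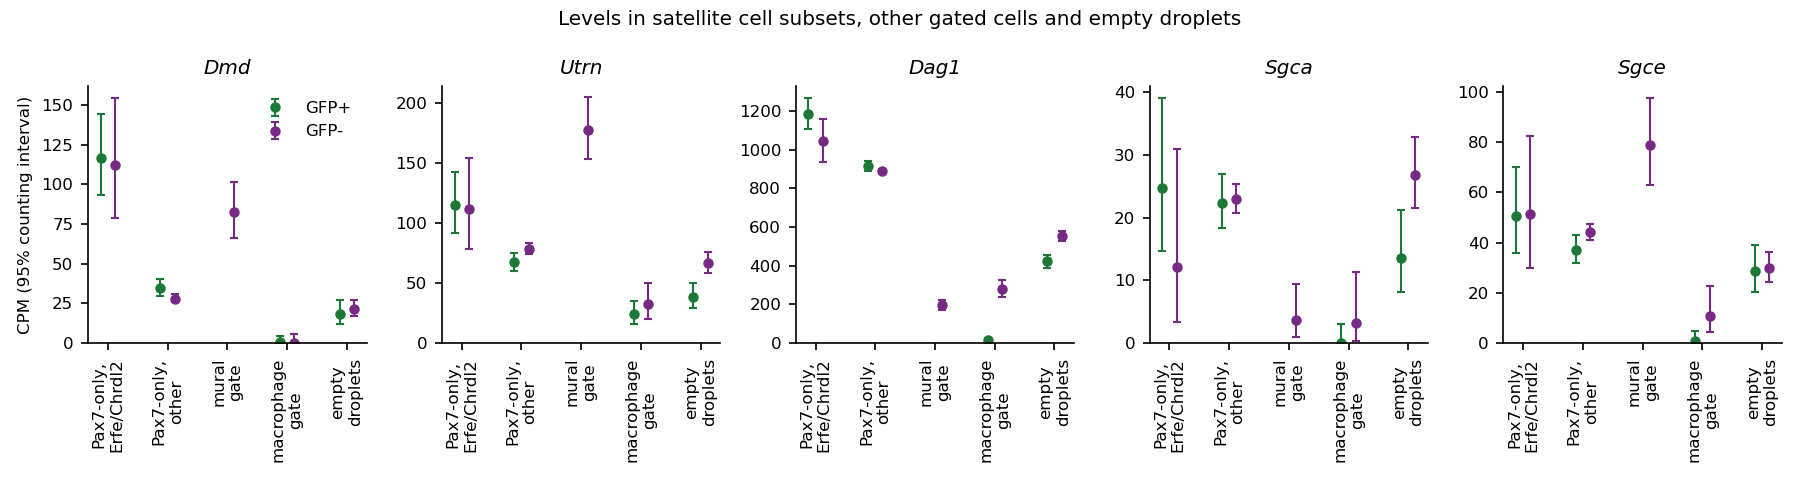
Levels of 5 members (CPM, linear axes from 0) in Pax7-only cells with and without Erfe and Chrdl2, mural-gated cells (GFP− only), macrophage-gated cells and empty droplets, with 95% Poisson counting intervals. Dmd is near 0 in macrophage-gated cells, and Dmd, Utrn and Sgce are higher in mural-gated than in GFP− Pax7-only cells, while Sgca is lower.

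By likeness over the 10 sums, among 7847 genes, the gene most like Dmd was Klf9, a glucocorticoid-induced transcription factor (Pearson r 0.97). Klf9 stood at 285 CPM in GFP+ and 173 CPM in GFP− Pax7-only cells, and at 649 CPM and 514 CPM in the Erfe and Chrdl2 subset of GFP+ and GFP−. Dag1 was most like Sema6a (r 0.98) and Drp2, a dystrophin-related protein (r 0.98). Drp2 stood at 38.4 CPM against 83.3 CPM in GFP+ and 33.4 CPM against 65.0 CPM in GFP− for Acta1-high against Pax7-only cells. Sgca was most like Txndc9 (r 0.98), Sgcb like Slc35a1 (r 0.99) and Sgce like Ddit4 (r 0.99). Utrn was most like Cd81 (r 0.98) and Sspn like Rdh14 (r 0.98). Among the members themselves, Sgce had an r of 0.03 with Sgca and −0.07 with Sgcb. All these r values include the sums of cells that met none of the 4 criteria. There, 62 of 83 GFP+ and 128 of 346 GFP− cells were in another gate, and all members that passed were lower in GFP+. The values therefore mix myogenic states with other cell types, and no r over the 4 states alone is given here.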

How the data were processed

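The deposited matrices gave, for each barcode with or without a cell, the raw UMI count of each gene, written by Cell Ranger version 4 per the file headers. The submitters' processing notes name Cell Ranger, Seurat and mm10, and no source used here names the annotation release or the counting settings. The library kit was the 10x 3′ v3.1 kit, per the labels' protocols, with 1 library per group. The matrices held 13928952 UMIs in GFP+ and 49709323 UMIs in GFP−, and kept cells held 11981352 UMIs in GFP+ and 44264206 UMIs in GFP−. At most 10% mitochondrial UMIs was required, with 43 GFP+ and 393 GFP− barcodes over 1000 UMIs left out by the filters. Doublets were not called, and a setting without the deepest 5% of cells was run instead.

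UMIs were summed per class and scaled to CPM here (scipy 1.17.1 and pandas 2.3.3 in Python 3.11.15). Intervals were exact Poisson for CPM, exact conditional (Clopper-Pearson) for ratios and exact binomial for shares. The calls were checked on simulated counts. Other gates needed at least 4 markers of a list and at least 20 UMIs over it. Likeness used log2(CPM + 1) of genes with a mean of at least 10 CPM. All 8 members are named. From each further list up to 3 genes with the largest ratio past 1.5-fold are named per comparison, and for each member the genes of most similar pattern. The members and lists were chosen with earlier results of these data known, and the bins of Pax7, the Erfe and Chrdl2 subset and the mural comparison were added after seeing the data. Of 32286 features, 32235 matched the GENCODE M21 annotation, and sequences came from RefSeq (GRCm38.p6). Of the list of further complex genes, 12 are reported here.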

Additional observations from a re-analysis of the deposited data

Results flagged for a closer look

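Sspn lay on opposite sides of 1 in the 2 libraries for Acta1-high over Pax7-only cells, with a ratio of 0.794 in GFP+ and 1.15 in GFP−. The GFP+ value rests on 34 UMIs in 22 cells, both intervals include 1, and the difference was not tested.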

How the results depend on the processing

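No paired analysis was possible because each group had 1 library, and no replicate could be left out for the same reason. Of 153 member counts under other settings, 126 stayed within 1.5 times the reported count. Of 1080 member ratios, 97 moved beyond their interval, and 3 with a reported difference of at least 1.5-fold changed direction. Ratios with a smaller reported difference that crossed 1 were not counted as changes of direction. Between all GFP+ and GFP− cells, 1 member in place of 0 was called with at most 5% mitochondrial UMIs, without cells in another gate and with no filter on low counts. In Myog-positive cells the count of 1 became 2 with at most 5% or no limit on mitochondrial UMIs, with gates at 2 UMIs, with Acta1-high at 50 per 10000, with a total without mitochondrial, ribosomal and contractile genes and with no filter on low counts, 3 without Erfe and Chrdl2 cells, and 4 after thinning. In Mki67-positive cells the count of 0 became 1 with no mitochondrial limit, without Erfe and Chrdl2 cells, without the deepest 5% of cells, after thinning and with no filter, and 2 with gates at 2 UMIs and without cells in another gate. In Pax7-only cells the count of 1 became 0 with no mitochondrial limit, with gates at 2 UMIs and without Erfe and Chrdl2 cells, and 2 with no filter. Among cells meeting none of the criteria the count of 7 became 4 after thinning and 1 without cells in another gate, where the ratios of Dmd (2.54), Dag1 (1.22) and Sspn (1.16) turned direction. Acta1-high over Pax7-only cells of GFP− gave 3 in place of 5 with at most 5% mitochondrial UMIs. Mki67-positive over Pax7-only cells gave 5 in place of 3 in GFP+ and 5 in GFP− with the reduced total.

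The Dmd share of Dmd plus Utrn in Pax7-only cells became 33.9% without Erfe and Chrdl2 cells and 44.9% after thinning in GFP+, and 24.5% with at most 5% mitochondrial UMIs and 29.5% after thinning in GFP−. The Sgca share in Acta1-high cells of GFP+ became 93.3% with the threshold at 50 per 10000. The share of cells with a Dmd UMI was 9.31% in GFP+ and 5.32% in GFP− at 2000 UMIs, and 32.3% in GFP+ and 22.6% in GFP− without thinning. Leaving out both other gates and Erfe and Chrdl2 cells, a setting added after seeing the data, gave a Dmd ratio of 1.35 over all cells. The causes were not tested. The 22 Acta1-high GFP+ cells, with 9 to 34 UMIs for 5 of the members, limit every value there.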
